A study of Mus musculus with 6 samples.

Results

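Potassium channel genes were taken as the protein-coding autosomal genes of mouse assembly GRCm38 whose symbol begins with Kcn, apart from Kcnq1, Kcne3, Kcnn4 and Kcnma1, which were set aside. Of 88 such genes, 74 had at least 1 peak of open chromatin whose centre lay nearest to an end of that gene, among the ends of all coding genes, and within 50 kb of it. These peaks numbered 300 of the 90823 in the consensus table. The other 14 genes had none within that distance: Kcna10, Kcnd2, Kcnh5, Kcnh7, Kcnip4, Kcnj14, Kcnj15, Kcnmb2, Kcnmb3, Kcnn2, Kcnq5, Kcns1, Kcnt2 and Kcnv1. A peak more than 50 kb inside a long gene was not assigned, so a missing peak says only that no end of the gene had one nearby.

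The assay was ATAC-seq. Its enzyme, a transposase, cuts and tags DNA that nucleosomes leave free, and the counts in a peak measure how open that stretch of chromatin was. Mouse intestinal organoids, epithelial cultures grown from crypts in Matrigel, were treated for 3 days with 25 µM of the membrane fatty acid arachidonic acid (AA), with 50 nM prostaglandin E2 (PGE2), one of the lipid signals made from AA, or with vehicle. Each of the 3 groups had 2 libraries. All groups grew in the same medium with EGF, Noggin, R-spondin, a glycogen synthase kinase inhibitor and a further kinase inhibitor, and epithelial cells were sorted before the reaction, per the labels' protocols. The labels used here give no strain, sex or age of the mice. The study's design text names the prostaglandin as a dimethyl analogue while the sample labels say PGE2, so it is called PGE2 here. Nothing says whether the 2 libraries of a group came from separate cultures, so p-values measure only the spread between these libraries, which may be technical.

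Total counts were 14236985 and 12374232 in the AA libraries, 13051109 and 13378895 in the PGE2 libraries, and 12819432 and 12900551 in the vehicle libraries. Potassium channel peaks took 0.198% and 0.195% of the counts in AA libraries, 0.2% and 0.198% in PGE2 libraries, and 0.209% and 0.207% in vehicle libraries. With 2 libraries against 2, an exact permutation test of these shares cannot reach 0.05. All 14 listed genes of gut epithelium, such as Epcam and Cdx2, had assigned peaks, with summed normalised counts (CPM, counts scaled to library size) between 2840 and 2990 in every library. Of the 9 immune genes listed 5 had peaks, among them Cd3e with 1, Ptprc with 3 and Itgam with 7 peaks of 63.6 to 67.0 CPM, while Cd3g and Cd79a had none. Of 9 stromal genes 6 had peaks, among them Col1a1 with 6 peaks of 36.9 to 41.2 CPM, while Col1a2 and Col3a1 had none. Summed over their lists, 33 peaks of neuron and glia genes held 194 to 214 CPM, 31 of smooth muscle and interstitial cell genes 286 to 329, 24 of fibroblast genes 106 to 116, 14 of immune genes 91.3 to 101, 50 of endothelial genes 410 to 425, 26 of enteroendocrine genes 87.5 to 102 and 20 of tuft cell genes 109 to 130. The smooth muscle list was 317 to 329 CPM with AA and 316 CPM in both PGE2 libraries, against 286 and 296 CPM with vehicle. Of this, Ano1, the gene of a chloride channel found in interstitial cells and in epithelia, held 222 and 209 CPM with AA and 211 and 204 with PGE2, against 185 and 191 with vehicle. The muscle genes Acta2, Myh11, Des and Cnn1 had log2 changes of -0.17 to 0.00 with AA and -0.33 to -0.17 with PGE2. The part of these lists in the results was not tested.

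Potassium channels let potassium ions leave the cell along their gradient and so set the membrane voltage. In gut epithelium that voltage is the electrical driving force for chloride secretion and for the uptake of sodium-coupled nutrients. The genes fall into classes by structure. Two-pore channels (Kcnk) carry a steady leak current, inward rectifiers (Kcnj) pass current best near the resting voltage, voltage-gated channels (Kcna, Kcnb, Kcnc, Kcnd, Kcnh, Kcnq) open on depolarization, and the Kcnn, Kcnt and Kcnu channels answer to conditions inside the cell, calcium for Kcnn, sodium for Kcnt and alkaline pH for Kcnu. Kcnf, Kcng, Kcns and Kcnv encode silent subunits that make no channel alone and modify those of the Kcnb family, and Kcnab, Kcne, Kcnip and Kcnmb encode accessory subunits. Arachidonic acid itself opens 3 of the two-pore channels: TREK-1 (Kcnk2), TRAAK (Kcnk4) and TREK-2 (Kcnk10).

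The promoter sequences of these 3 genes are shown because AA, one of the treatments, gates their channels, and those of Kcna4, Kcnab2 and Kcnh8 because the peak over each was lower with AA. Each runs 5′ to 3′ from 250 bases before to 50 after a RefSeq start site (assembly GRCm38.p6) and overlaps a counted peak, and capitals mark CG pairs. They lie at chr1:189402224-189402523 on the minus strand (Kcnk2), chr19:6934466-6934765 on the minus strand (Kcnk4), chr12:98575078-98575377 on the minus strand (Kcnk10), chr2:107290339-107290638 on the plus strand (Kcna4), chr4:152477500-152477799 on the minus strand (Kcnab2) and chr17:52602459-52602758 on the plus strand (Kcnh8).
Kcnk2: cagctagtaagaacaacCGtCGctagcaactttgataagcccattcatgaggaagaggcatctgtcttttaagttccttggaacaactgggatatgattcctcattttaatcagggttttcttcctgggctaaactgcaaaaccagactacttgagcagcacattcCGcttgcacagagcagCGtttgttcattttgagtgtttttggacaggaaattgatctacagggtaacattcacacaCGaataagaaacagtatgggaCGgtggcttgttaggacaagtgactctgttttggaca
Kcnk4: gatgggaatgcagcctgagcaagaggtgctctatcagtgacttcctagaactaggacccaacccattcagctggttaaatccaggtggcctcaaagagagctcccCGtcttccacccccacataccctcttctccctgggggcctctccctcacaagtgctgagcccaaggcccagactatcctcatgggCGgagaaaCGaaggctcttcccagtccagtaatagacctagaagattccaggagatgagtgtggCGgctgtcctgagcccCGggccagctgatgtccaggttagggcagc
Kcnk10: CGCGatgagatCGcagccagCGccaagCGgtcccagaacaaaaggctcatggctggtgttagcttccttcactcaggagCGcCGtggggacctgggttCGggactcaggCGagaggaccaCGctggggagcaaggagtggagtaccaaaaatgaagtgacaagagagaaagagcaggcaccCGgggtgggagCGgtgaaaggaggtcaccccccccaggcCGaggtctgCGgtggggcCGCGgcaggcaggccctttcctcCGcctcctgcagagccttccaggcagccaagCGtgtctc
Kcna4: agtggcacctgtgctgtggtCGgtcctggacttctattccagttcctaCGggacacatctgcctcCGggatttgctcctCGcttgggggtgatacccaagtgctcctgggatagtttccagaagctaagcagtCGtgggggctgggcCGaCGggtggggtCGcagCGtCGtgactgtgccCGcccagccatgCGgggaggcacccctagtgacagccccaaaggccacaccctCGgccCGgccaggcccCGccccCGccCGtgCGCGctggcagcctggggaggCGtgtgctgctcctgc
Kcnab2: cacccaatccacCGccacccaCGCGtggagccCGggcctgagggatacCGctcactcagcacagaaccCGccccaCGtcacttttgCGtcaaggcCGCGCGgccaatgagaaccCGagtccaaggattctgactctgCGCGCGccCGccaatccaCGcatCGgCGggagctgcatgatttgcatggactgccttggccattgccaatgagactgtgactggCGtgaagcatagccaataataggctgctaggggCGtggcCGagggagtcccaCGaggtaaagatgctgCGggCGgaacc
Kcnh8: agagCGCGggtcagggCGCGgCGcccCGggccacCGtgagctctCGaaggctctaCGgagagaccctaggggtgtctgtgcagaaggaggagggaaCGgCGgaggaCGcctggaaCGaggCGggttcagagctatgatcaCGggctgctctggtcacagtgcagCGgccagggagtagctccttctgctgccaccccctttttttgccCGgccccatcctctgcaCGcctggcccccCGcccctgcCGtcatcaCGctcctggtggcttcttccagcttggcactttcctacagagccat

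The Kcnk2 and Kcnk4 windows were poor in CG pairs, with 6 and 5, while Kcnk10 held 18, Kcna4 20, Kcnab2 25 and Kcnh8 21. Start sites were given for 65 of the 88 genes, in 89 windows. The 29 windows that overlapped a potassium channel peak had a median of 20 CG pairs (range 2 to 49) and 64.3% G and C. The 60 windows with no such peak had a median of 7 CG pairs and 55% G and C, and the 19241 windows of autosomal coding genes a median of 14 and 57%. The cAMP response element TGACGTCA was in 0 of the 89 windows on either strand, against 2.27% of all windows, and the AP-1 letters TGANTCA in 3 (3.37%, against 7.07%), at Kcnip3, Kcnip4 and a start site of Kcnk2 inside the gene. The TEAD letters GGAATG were in 12 (13.5%, against 13.4%), among them the printed windows of Kcnk2 and Kcnk4, and the TATA box letters TATAAA in 5 (5.62%, against 12.7%). None of the 4 motifs contains another, and a match describes the window alone.

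Potassium channel peaks were slightly narrower than peaks in general, with a median of 499.5 bp (181 to 2314) against 547 bp. Of the 300, 151 (50.3%) lay inside their own gene, against 54% of all assigned peaks. At or within 1 kb of an annotated end of the gene lay 60 peaks of 42 genes (20%, against 22.5%), called gene-end peaks here, since the gene table carried no strand and the group takes in promoters and transcript ends. Genes with a peak had a median of 3, as genes did in general, and Kcnk5 had the most with 18. Counts were high enough to test at 293 peaks. The 7 that were left out, at Kcna5, Kcna6, Kcnc4, Kcne2, Kcnip1, Kcnk3 and Kcnn3, had at most 22 counts in any library.

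Per kb of summed peak, Kcnk1, the two-pore channel TWIK-1, was among the most open genes with vehicle, at 30.3 ± 0.644 CPM per kb (SD, n = 2). Kcnk16, the alkali-activated channel TALK-1, followed at 21.1 ± 0.717, Kcng4 at 21.1 ± 2.22, Kcnk5 at 20.7 ± 0.44, Kcnk7 at 20.6 ± 0.239, Kcnf1 at 19.9 ± 0.766, Kcnv2 at 19.3 ± 0.462, and Kcna4 and Kcnj2 both at 19.0 (SD 0.889 and 0.314). Neighbours in that order from Kcnk16 to Kcnj2 were no farther apart than the larger of their SDs. By contrast Kcnk2, with 1 peak, was at 9.14 ± 0.028, Kcnk4 at 7.28 ± 1.34, Kcnk10 at 11.2 ± 0.42, Kcnj16 at 5.06 ± 0.163, Kcne2 at 4.31 ± 0.484, Kcnj13 at 3.25 ± 0.0821 and Kcnip1 at 3.23 ± 0.0827 CPM per kb with vehicle.

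With AA, 34 potassium channel peaks were higher and 45 lower than with vehicle among the 293 tested, at an adjusted p under 0.05 (edgeR's quasi-likelihood F-test, Benjamini-Hochberg over 89347 peaks). That is 27.0% of them, and the share among all tested peaks was 30.5%, with 16.7% higher and 13.8% lower. The median log2 change was -0.10 over the potassium channel peaks and -0.02 over all peaks. Changes of at least 2-fold were called upward at 14 peaks and downward at 8, against 5.37% and 2.68% of all peaks. In ATAC-seq of a culture, fewer cells with an open site and less opening in each cell cannot be told apart. Of the 79 calls, 27 (18 higher, 9 lower) passed in every fit that left out 1 of the 6 libraries. The counts were 24 higher and 18 lower without AA replicate 1, 28 and 25 without AA replicate 2, 20 and 30 without vehicle replicate 1, and 27 and 22 without vehicle replicate 2, and DESeq2 called 15 and 5. The larger side therefore turned to the higher one without either AA library, without vehicle replicate 2 and with DESeq2. Higher calls also outnumbered lower ones over all tested peaks, in the main fit and in each of these fits. Over all tested peaks DESeq2 called 6075 higher and 3012 lower.

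With PGE2, 37 peaks were higher and 25 lower than with vehicle, 21.2% of those tested, against 24.9% of all peaks (14.3% higher, 10.6% lower). The median log2 change was 0.01 over the potassium channel peaks and 0 over all. At least 2-fold changes were called upward at 15 peaks and downward at 2, against 2.79% and 1.49% of all peaks. Of the 62 calls, 20 (12 higher, 8 lower) passed in every fit that left out 1 library. Without PGE2 replicate 2 there were 24 higher and 24 lower, without vehicle replicate 1 there were 22 and 18, and without vehicle replicate 2 there were 18 and 13. DESeq2 called 10 and 6, against 5288 and 2079 over all tested peaks. The AA and PGE2 comparisons share the vehicle libraries, so their values are given side by side and are not independent.

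**Figure D1:**
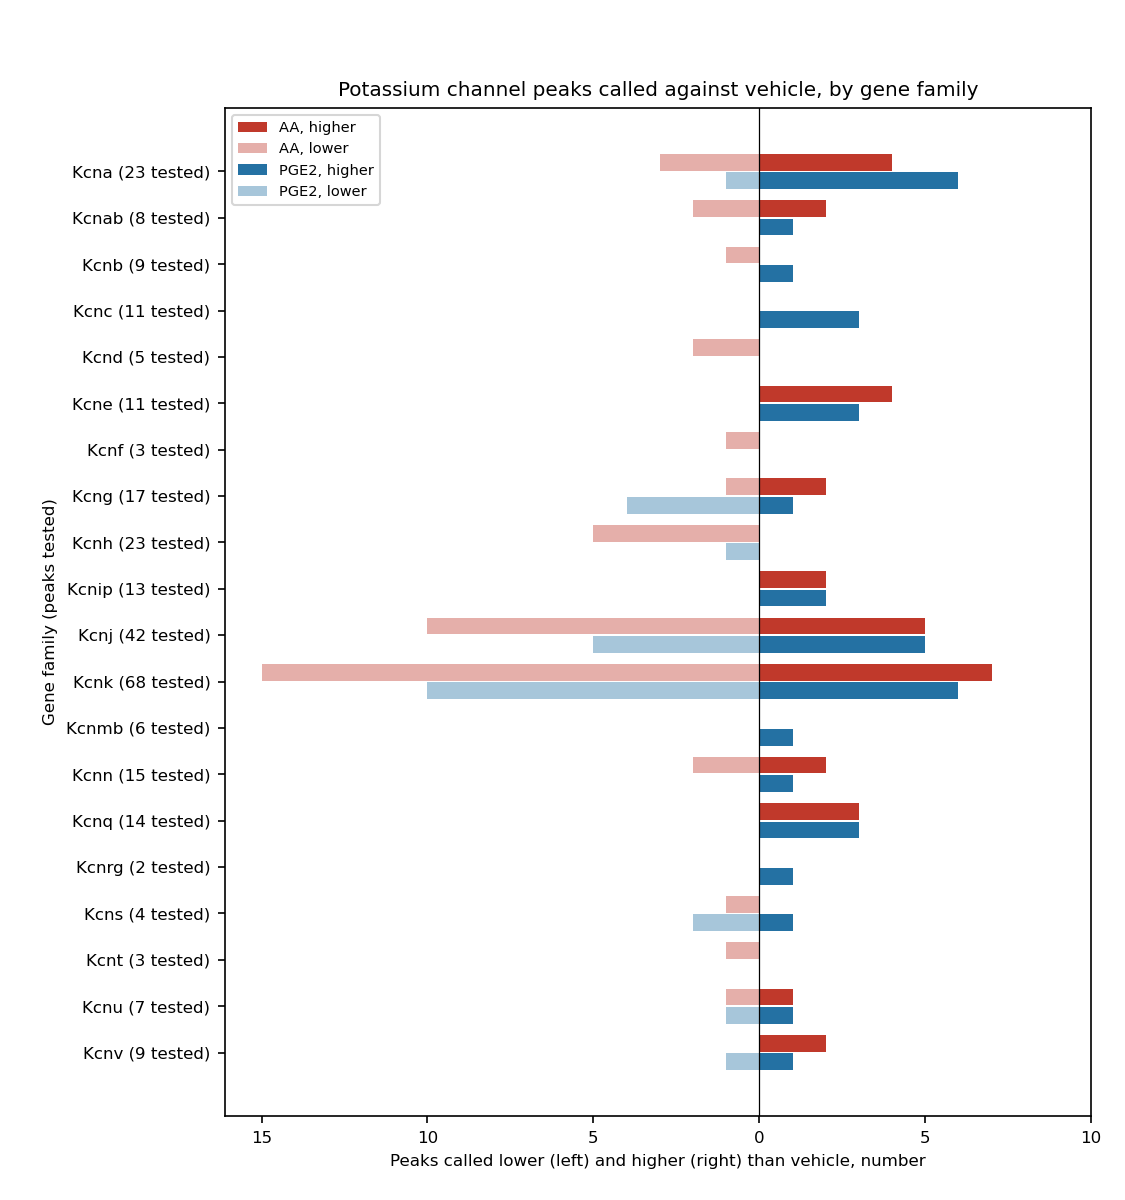
Number of potassium channel peaks called higher (right of 0) and lower (left of 0) than vehicle in each gene family, AA above PGE2; pale bars are lower calls. The Kcnk family held the most calls, 7 higher and 15 lower with AA and 6 higher and 10 lower with PGE2.

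By family, the two-pore genes gave 7 higher and 15 lower calls with AA and 6 and 10 with PGE2 among 68 peaks. The inward rectifiers gave 5 and 10 with AA and 5 and 5 with PGE2 among 42. The Kcnh family, which includes the hERG gene Kcnh2, gave 0 higher and 5 lower with AA and 0 and 1 with PGE2 among 23. The Kcnc family gave no call with AA and 3 higher with PGE2 among 11. The accessory families Kcne and Kcnip gave higher calls and no lower ones, 4 of 11 and 2 of 13 peaks with AA, and 3 and 2 with PGE2. The Kcna family gave 4 higher and 3 lower with AA, and 6 and 1 with PGE2, among 23. Over all peaks, 16.7% were higher and 13.8% lower with AA, and 14.3% and 10.6% with PGE2. These are counts within families of unequal size, and no difference between families was tested.

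At Kcnk2, which encodes TREK-1, the single peak fell with both agents. It lies over and upstream of the printed promoter window, at chr1:189402338-189403690, centred 741 bp before the start site. It held 5.63 and 6.36 CPM in AA libraries and 6.94 CPM in both PGE2 libraries, against 12.2 and 12 CPM in vehicle libraries. Every treated library was below both vehicle libraries. The log2 change was -1.02 (SE 0.14, adjusted p = 8.79e-08) with AA and -0.80 (SE 0.13, adjusted p = 8.08e-06) with PGE2. The AA-minus-PGE2 difference was -0.22, with an adjusted p of 0.42. Both changes from vehicle passed in every fit that left out 1 library and under DESeq2.

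Of the other AA-gated channels, Kcnk4 was called higher with PGE2 alone, and Kcnk10 lower with both agents by smaller changes than Kcnk2. No difference between these genes was tested. TRAAK (Kcnk4) had 1 peak, over its promoter window at chr19:6933363-6934547, with 8.58 and 9.05 CPM with AA, 12 and 10.8 with PGE2, and 9.56 and 7.32 with vehicle. The PGE2 libraries were the highest and the AA libraries lay between the vehicle ones. The PGE2 change of 0.44 (SE 0.13, adjusted p = 0.013) did not pass without PGE2 replicate 1 (0.36) or vehicle replicate 2 (0.26), and with AA the change was 0.06. TREK-2 (Kcnk10) had 8 peaks, of which 1, inside the gene at chr12:98528369-98529316, was lower with both agents. It held 24.0 and 22.5 CPM with AA and 20.9 and 23.4 with PGE2, against 26.1 and 30.5 with vehicle. Its log2 changes were -0.28 (adjusted p = 0.0158) with AA and -0.35 (adjusted p = 0.00346) with PGE2. Without vehicle replicate 2 they were -0.17 and -0.24, and without AA replicate 2 the AA change was -0.24, none of which passed. The peak over its printed promoter window had 2.39 and 1.79 CPM with AA, 2.67 and 3.08 with PGE2, and 2.30 and 2.21 with vehicle, and was not called. Summed over its peaks, Kcnk10 was lower with PGE2 by a log2 change of -0.31 (SE 0.07, adjusted p = 0.00199). The sum was also lower with AA, by -0.21 (adjusted p = 0.0284). That AA call was lost without AA replicate 1 (-0.25), AA replicate 2 (-0.17), vehicle replicate 1 (-0.25) or vehicle replicate 2 (-0.17).

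Kcnk5, which encodes the alkali-sensitive channel TASK-2, had 18 peaks spread over the gene and its flanks. With AA 3 of them were higher and 6 lower, and with PGE2 1 was higher and 6 lower. The peak over the start site had 32.3 and 32.2 CPM with AA, 34.4 and 32.2 with PGE2, and 30.4 and 32.9 with vehicle, and was not called. A peak 11.6 kb upstream, at chr14:20193128-20193639, fell with both agents. It had 10.5 and 8.56 CPM with AA and 9.46 and 10.6 with PGE2, against 16.5 and 16.7 with vehicle, which is -0.79 (SE 0.12, adjusted p = 9.57e-07) with AA and -0.73 (SE 0.12, adjusted p = 7.1e-06) with PGE2. Inside the gene, the peak at chr14:20164389-20165952 was also lower, at 26.2 and 23.3 CPM with AA and 26.0 and 27.8 with PGE2, against 35.9 and 35 with vehicle. Another inside peak, at chr14:20148949-20149835, was higher with AA, at 16.4 and 15.3 CPM, 13.5 and 15.7 with PGE2, and 10.6 and 11.7 with vehicle (AA log2 change 0.51, SE 0.12, adjusted p = 0.000573). Its PGE2 change of 0.39 was lost without PGE2 replicate 2 (0.28) or vehicle replicate 1 (0.31). Peaks that rose and peaks that fell thus stood within the same gene. Summed, Kcnk5 was lower by -0.21 (SE 0.03, adjusted p = 5.33e-05) with AA and by -0.26 (SE 0.03, adjusted p = 4.75e-06) with PGE2, and these calls passed without any 1 library.

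Among other two-pore genes, TWIK-2 (Kcnk6) had 1 gene-end peak, at chr7:29231924-29232969, that was highest with PGE2. It held 8.30 and 8.48 CPM with AA and 11 and 14.6 with PGE2, against 4.97 and 5.64 with vehicle, with no overlap between any 2 groups. The log2 change was 0.66 (SE 0.16, adjusted p = 0.00138) with AA and 1.27 (SE 0.15, adjusted p = 1.17e-08) with PGE2. AA was lower than PGE2 by -0.61 (adjusted p = 0.002), a call that was lost without AA replicate 1 (-0.58) or PGE2 replicate 2 (-0.39). Kcnk1 kept a steady total over its 12 peaks (log2 change -0.03 with AA, -0.01 with PGE2), yet 1 peak inside the gene, at chr8:126008816-126009306, was higher with both. That peak had 19.5 and 20.6 CPM with AA and 19.1 and 18.5 with PGE2, against 12.9 and 12.3 with vehicle, which is 0.67 (adjusted p = 2.07e-06) and 0.58 (adjusted p = 4.53e-05). Kcnk13, which encodes the halothane-inhibited channel THIK-1, was lower over its 5 summed peaks, by -0.56 (SE 0.10, adjusted p = 0.000215) with AA and -0.47 (SE 0.10, adjusted p = 0.000818) with PGE2. A peak 5.92 kb outside Kcnk7, which lies within Ehbp1l1, was lower with AA at 17.6 and 15.4 CPM, 18.3 and 18.0 with PGE2, and 23.0 and 21.2 with vehicle (AA log2 change -0.42, adjusted p = 0.00108). Its PGE2 change of -0.28 (adjusted p = 0.0298) was lost when either PGE2 or either vehicle library was left out (-0.34 to -0.23). The gene-end peak of Kcnk7 went the other way with AA, by 0.37 (adjusted p = 0.0365). That call was lost without AA replicate 1 (0.46), AA replicate 2 (0.30) or vehicle replicate 1 (0.18).

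**Figure D2:**
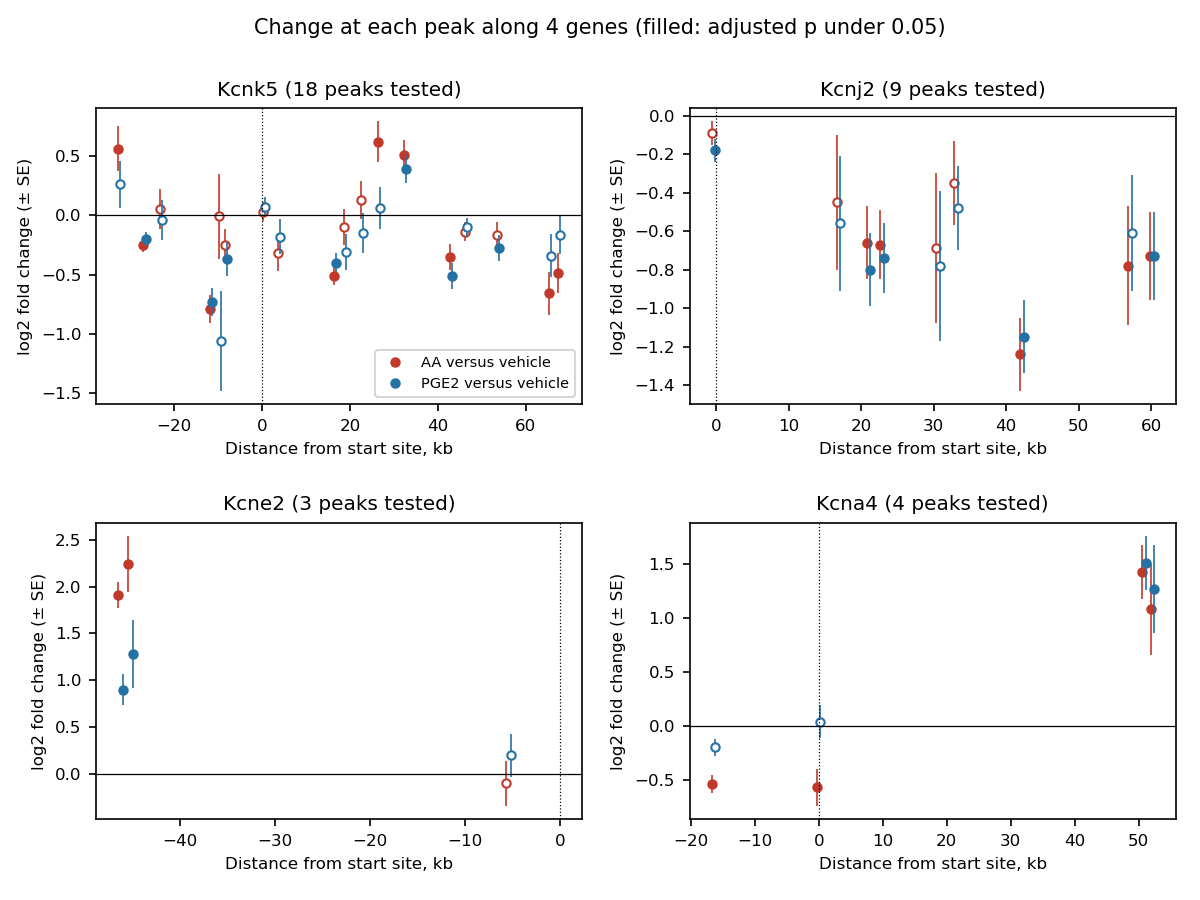
Log2 change from vehicle (± SE) of each tested peak against its distance in kb from the start site at Kcnk5, Kcnj2, Kcne2 and Kcna4, AA in red and PGE2 in blue; filled points passed an adjusted p of 0.05. At Kcnj2 the 9 peaks lie at or below 0, and at Kcna4 the 2 far downstream peaks are above 0 while the upstream and start-site peaks are lower with AA.

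The inward rectifier Kcnj2, which encodes Kir2.1, had 9 peaks, and with each agent 5 of them were lower and none higher. The peak over its start site was one of the strongest of any potassium channel gene, at 63.4 and 66.8 CPM with AA, 59.8 and 62.5 with PGE2, and 71.1 and 67.5 with vehicle. Its PGE2 change was -0.18 (adjusted p = 0.0212) and did not pass without PGE2 replicate 1 (-0.15), vehicle replicate 1 (-0.15) or vehicle replicate 2 (-0.22). The largest change was farther off, 31.5 kb from the gene at chr11:111108004-111108675. There the CPM was 2.88 and 3.42 with AA and 3.28 and 3.39 with PGE2, against 8.57 and 6.25 with vehicle. The log2 change was -1.24 (SE 0.19, adjusted p = 1.19e-06) with AA and -1.15 (SE 0.19, adjusted p = 6.02e-06) with PGE2. Summed, Kcnj2 was lower by -0.29 (SE 0.05, adjusted p = 7.91e-05) with AA and -0.42 (SE 0.05, adjusted p = 2.69e-06) with PGE2. The AA-minus-PGE2 difference of the sum was 0.12 (adjusted p = 0.0889).

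Its neighbour on chromosome 11, Kcnj16, encodes Kir5.1, a partner subunit of Kir4.1. Its 1 peak, 25.2 kb before the gene, had 1.41 and 2.04 CPM with AA, 1.98 and 2.47 with PGE2, and 3.29 and 3.13 with vehicle. The AA change of -0.91 (SE 0.27, adjusted p = 0.00691) did not pass without AA replicate 1 (-0.64) or vehicle replicate 1 (-0.87). Kir7.1 (Kcnj13), a channel of transporting epithelia, changed the other way at a peak inside the gene, which itself lies within Gigyf2 (chr1:87386500-87386947). It had 2.67 and 3.02 CPM with AA and 2.29 and 2.24 with PGE2, against 1.15 and 1.14 with vehicle. The AA change was 1.30 (SE 0.30, adjusted p = 0.000655), and the PGE2 change of 0.98 (adjusted p = 0.0177) was lost when either PGE2 or either vehicle library was left out (0.96 to 0.99).

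Kcnj8 encodes Kir6.1, a pore subunit of ATP-sensitive channels. A peak 16.3 kb from the gene, at chr6:142548405-142548689, had 3.87 and 3.83 CPM with AA and 1.98 and 2.39 with PGE2, against 0.995 and 0.991 with vehicle. The 3 groups did not overlap. The AA change was 1.95 (SE 0.28, adjusted p = 5.54e-07). The PGE2 change of 1.13 (adjusted p = 0.00746) did not pass without PGE2 replicate 2 (0.99), vehicle replicate 1 (1.13) or vehicle replicate 2 (1.13). The AA-minus-PGE2 difference of 0.81 (adjusted p = 0.0202) was lost without AA replicate 1 (0.82), AA replicate 2 (0.82) or PGE2 replicate 1 (0.69). A peak inside the gene went the other way with AA, at 1.55 and 2.04 CPM, 2.29 and 2.08 with PGE2, and 2.22 and 3.89 with vehicle. Its AA change of -0.78 (adjusted p = 0.0291) was lost without AA replicate 1 (-0.57) or vehicle replicate 2 (-0.32). The gene's own end peaks were not called. At Kcnj4, which encodes Kir2.3, a peak over a start site was higher with PGE2, at 5.56 and 3.59 CPM with AA, 6.33 and 9.17 with PGE2, and 3.37 and 4.42 with vehicle (PGE2 log2 change 0.99, SE 0.21, adjusted p = 0.00139).

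**Figure D3:**
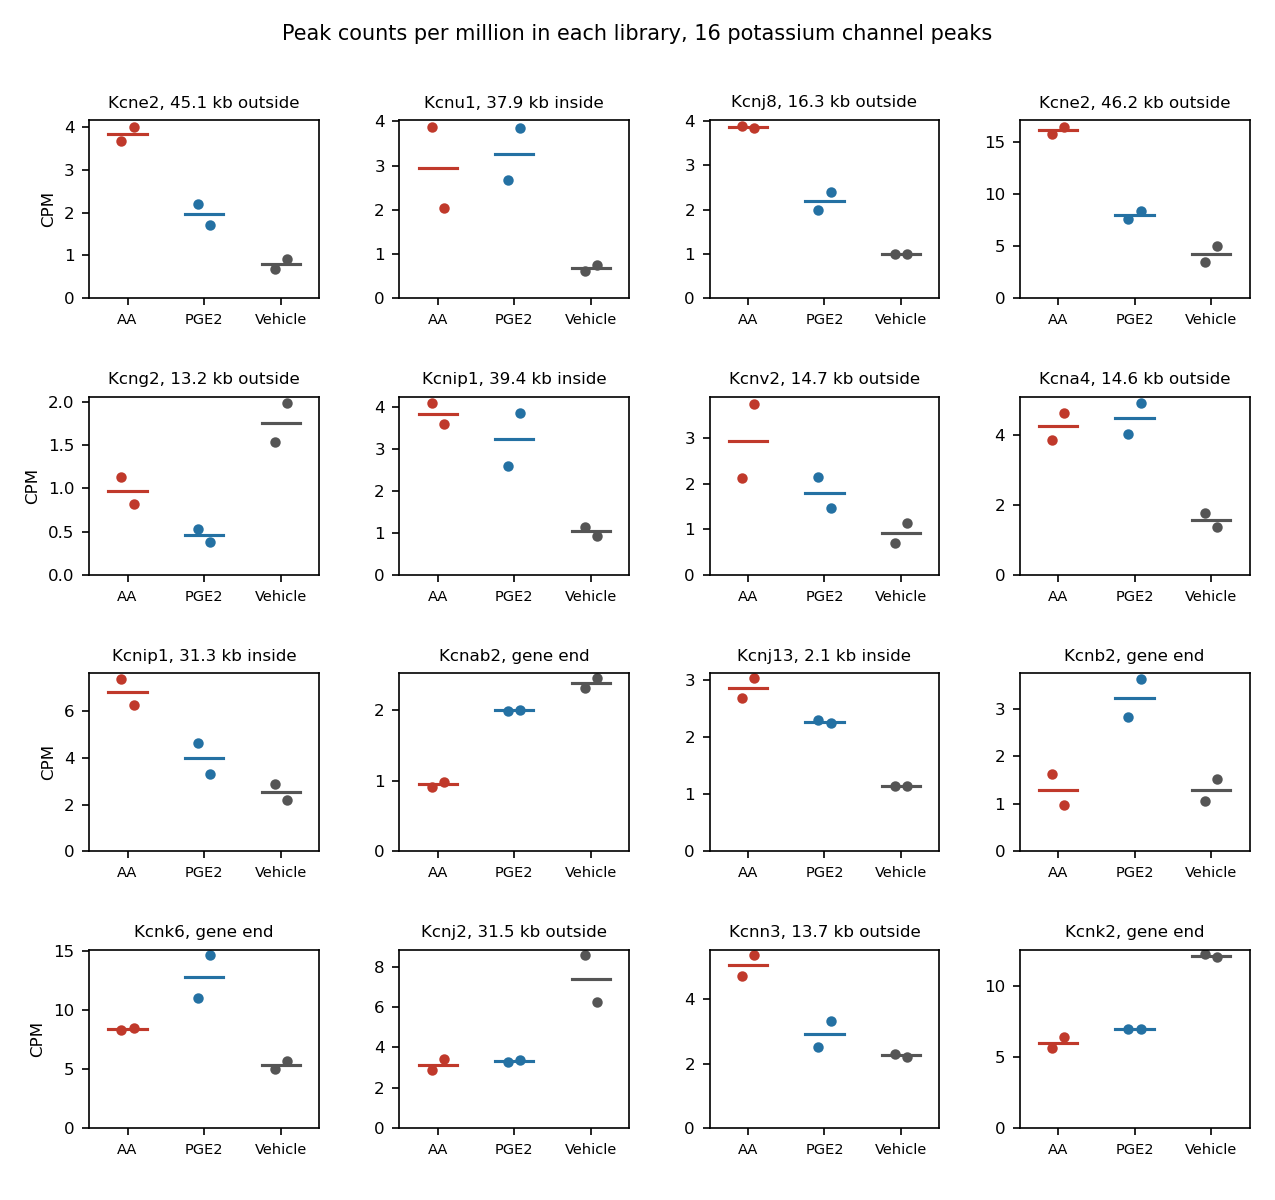
CPM in each of the 6 libraries (points) with the group mean (line) at the 16 potassium channel peaks with the largest change among those called in every fit that left out 1 library; titles give the distance to the nearest gene end. At Kcnk2 the AA and PGE2 libraries lie between 5.63 and 6.94 CPM, and both vehicle libraries at 12 or above.

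Among voltage-gated genes, Kcna4, which encodes the rapidly inactivating Kv1.4, combined both directions in 4 peaks. A peak 14.6 kb beyond the gene, at chr2:107341251-107341642, had 3.87 and 4.65 CPM with AA and 4.04 and 4.93 with PGE2, against 1.76 and 1.37 with vehicle. Its log2 change was 1.43 (SE 0.25, adjusted p = 1.42e-05) with AA and 1.51 (SE 0.25, adjusted p = 6.72e-06) with PGE2. A larger peak 16.6 kb upstream, at chr2:107273546-107274518, was lower with AA, at 23.3 and 25.9 CPM, 30.0 and 32.5 with PGE2, and 37.2 and 34.3 with vehicle (AA log2 change -0.54, SE 0.08, adjusted p = 1.73e-06). The promoter peak, over the printed window, followed the upstream one. It had 4.71 and 4.40 CPM with AA, 6.56 and 7.40 with PGE2, and 6.73 and 6.86 with vehicle. Its AA change of -0.57 (adjusted p = 0.00668) was lost without AA replicate 2 (-0.53), and its AA-minus-PGE2 difference of -0.61 (adjusted p = 0.0122) without AA replicate 1 (-0.65), AA replicate 2 (-0.57) or PGE2 replicate 2 (-0.52). Summed, Kcna4 was lower with AA by -0.38 (SE 0.08, adjusted p = 0.000613), and its PGE2 change was -0.08 (adjusted p = 0.401).

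Kcna1, which encodes Kv1.1, had a peak 8.94 kb from the gene that was higher with both agents, at chr6:126627195-126627854. It had 6.40 and 6.20 CPM with AA and 6.18 and 6.86 with PGE2, against 2.91 and 3.51 with vehicle, a log2 change of 0.97 (adjusted p = 5.64e-05) with AA and 1.02 (adjusted p = 3.6e-05) with PGE2. Every treated library was above both vehicle libraries, and both calls passed without any 1 library.

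Kcnb2, which encodes Kv2.2, had a gene-end peak that was higher with PGE2 and not with AA. At chr1:15286447-15287145 it had 1.62 and 0.978 CPM with AA, 2.82 and 3.62 with PGE2, and 1.07 and 1.52 with vehicle. The PGE2 change was 1.30 (SE 0.30, adjusted p = 0.000779) and the AA change was 0.02. The AA-minus-PGE2 difference of -1.28 (SE 0.29, adjusted p = 0.00305) was lost without AA replicate 2 (-0.99) or PGE2 replicate 2 (-1.09). Kcnh8, a channel of the Elk group, was lower with AA at the peak over its start, at chr17:52600885-52602693, with 15.5 and 14.7 CPM with AA, 17.5 and 17.7 with PGE2, and 21.2 and 19.4 with vehicle (AA log2 change -0.43, SE 0.10, adjusted p = 0.00107). A peak 27.4 kb outside Kcnh2 was lower by -0.71 with AA (adjusted p = 0.000701) and -0.61 with PGE2 (adjusted p = 0.00402), and neither call passed without vehicle replicate 1 (-0.46 and -0.37). A peak inside Kcnd3 was lower with AA by -0.86 (adjusted p = 0.0145), a call that was lost without AA replicate 1 (-0.50), vehicle replicate 1 (-0.87) or vehicle replicate 2 (-0.84). Kcnh1, which encodes Eag1, had 1 peak, with 4.64 and 5.38 CPM with AA, 5.03 and 7.4 with PGE2, and 5.59 and 5.41 with vehicle, and it was called with neither agent (log2 change -0.14, adjusted p = 0.598, and 0.18, adjusted p = 0.512).

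Among the accessory subunits, Kcne2 encodes a single-span subunit that pairs with the Kcnq1 channel, among others, and is known for its part in gastric acid secretion. A peak 46.2 kb before its start, at chr16:92245821-92246558, had 15.8 and 16.5 CPM with AA and 7.63 and 8.40 with PGE2, against 3.52 and 5.03 with vehicle. AA stood highest, PGE2 between, and the groups did not overlap. The log2 change was 1.91 (SE 0.14, adjusted p = 7.12e-14) with AA and 0.90 (SE 0.17, adjusted p = 4.82e-05) with PGE2, and AA exceeded PGE2 by 1.01 (SE 0.13, adjusted p = 1.34e-06). A smaller peak next to it, at chr16:92247086-92247403, had 3.66 and 3.99 CPM with AA and 2.21 and 1.70 with PGE2, against 0.689 and 0.915 with vehicle. Its AA change of 2.24 (SE 0.30, adjusted p = 1.34e-07) was the largest upward change with AA of any tested potassium channel peak. Its PGE2 change of 1.28 (adjusted p = 0.0059) was lost without PGE2 replicate 1 (1.07) or vehicle replicate 1 (1.08). The next coding gene, Smim11, has its nearest end 55052 and 53997 bp from these peaks, so the assignment to Kcne2 rests on a small difference in distance. Another tested peak, 5.46 kb before the start, was not called.

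Kcnip1 encodes a calcium-binding subunit of the Kcnd channels. Among the peaks assigned to Kcnip1, the 2 inside the gene were higher with both agents. Other peaks inside it were nearer to an end of Kcnmb1, were assigned to that gene and were called with neither agent. At chr11:33668495-33669064 there were 4.08 and 3.59 CPM with AA and 2.59 and 3.85 with PGE2, against 1.15 and 0.915 with vehicle, a log2 change of 1.89 (SE 0.29, adjusted p = 1.35e-06) with AA and 1.63 (SE 0.30, adjusted p = 5.06e-05) with PGE2. At chr11:33660323-33660993 there were 7.38 and 6.28 CPM with AA and 4.65 and 3.32 with PGE2, against 2.91 and 2.21 with vehicle. The AA change there was 1.42 (SE 0.20, adjusted p = 3.05e-07). The PGE2 change of 0.64 (adjusted p = 0.0348) was lost without PGE2 replicate 1 (0.37) or vehicle replicate 2 (0.45), and the AA-minus-PGE2 difference of 0.78 (adjusted p = 0.00326) without AA replicate 1 (0.66) or PGE2 replicate 2 (0.56).

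The Kcnab genes encode cytoplasmic partners of the Kcna channels. Before Kcnab1, a peak 47.7 kb away had 20.5 and 23.6 CPM with AA and 19.7 and 21.0 with PGE2, against 13.6 and 13.4 with vehicle, a log2 change of 0.70 (adjusted p = 7.46e-07) with AA and 0.59 (adjusted p = 2.87e-05) with PGE2. Inside Kcnab1, a smaller peak was lower with AA, at 1.20 and 1.79 CPM, 1.07 and 2.16 with PGE2, and 2.45 and 2.90 with vehicle. Its AA change of -0.85 (adjusted p = 0.0301) was lost without AA replicate 1 (-0.57), vehicle replicate 1 (-0.96) or vehicle replicate 2 (-0.73). Kcnab2 was lower with AA at its gene-end peak, over the printed promoter window, at 0.914 and 0.978 CPM with AA, 1.98 and 2.00 with PGE2, and 2.30 and 2.44 with vehicle. The AA change was -1.32 (SE 0.33, adjusted p = 0.00173). That peak lies inside Nphp4, whose nearest end is 1014 bp from its centre, so it cannot be given to Kcnab2 alone. The AA-minus-PGE2 difference of -1.07 (adjusted p = 0.0369) did not pass without either AA library (-1.01 and -1.12), either PGE2 library (-1.08 and -1.06) or vehicle replicate 2 (-1.07).

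Silent subunits and channels gated from inside the cell gave scattered calls. Kcnv2, a modifier of Kcnb channels, was lower with PGE2 at a peak 21.0 kb from the gene, at chr19:27300777-27301413, with 9.14 and 9.78 CPM with AA, 4.58 and 6.24 with PGE2, and 11.3 and 10.2 with vehicle. The PGE2 change was -0.99 (SE 0.15, adjusted p = 1.51e-06), and AA exceeded PGE2 by 0.80 (SE 0.15, adjusted p = 0.000399). On the other side of the gene, a peak 14.7 kb off was higher with AA, at 2.11 and 3.75 CPM, 2.14 and 1.46 with PGE2, and 0.689 and 1.14 with vehicle (AA log2 change 1.64, SE 0.35, adjusted p = 0.000276). Kcnn3, the calcium-activated channel SK3, had a peak 13.7 kb off with 4.71 and 5.38 CPM with AA, 2.52 and 3.32 with PGE2, and 2.30 and 2.21 with vehicle (AA log2 change 1.15, SE 0.22, adjusted p = 5.1e-05). At Kcnu1, known as the sperm channel Slo3, an inside peak was higher with both agents. It had 3.87 and 2.04 CPM with AA and 2.67 and 3.85 with PGE2, against 0.612 and 0.762 with vehicle, a log2 change of 2.12 (SE 0.37, adjusted p = 2.13e-05) with AA and 2.23 (SE 0.36, adjusted p = 1.11e-05) with PGE2. The Kcnu1 gene-end peak, which is also within 1 kb of an end of Ash2l, was lower with AA by -0.54 (SE 0.13, adjusted p = 0.00106). Its PGE2 change of -0.38 (adjusted p = 0.0236) was lost without PGE2 replicate 1 (-0.32), vehicle replicate 1 (-0.42) or vehicle replicate 2 (-0.34).

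When the counts of a gene's peaks were summed, 9 of 74 genes were higher and 19 lower with AA (37.8%, against 32.4% of 16791 genes, with 16.2% in each direction). With PGE2, 10 were higher and 14 lower (32.4%, against 38.5%, with 20.2% higher and 18.3% lower). The genes higher with AA included Kcna1, Kcnab1, Kcne2, Kcnip1, Kcnj12, Kcnj13, Kcnk6 and Kcnv2, and those higher with PGE2 were Kcna1, Kcna3, Kcnab1, Kcnc4, Kcne2, Kcnip1, Kcnj11, Kcnk4, Kcnk6 and Kcnrg. Lower with both agents were, among others, the renal channel ROMK (Kcnj1), the A-type channel Kcnd3 and the silent subunits Kcng4 and Kcns2. The G-protein-gated channels Kcnj3 (1 peak of 0.326 to 1.41 CPM) and Kcnj9 were lower with AA. Each of these lower calls was lost in at least 1 fit without 1 library, and DESeq2 called none of them. The lower calls that passed in every such fit were at Kcna4, Kcnab2, Kcnj2, Kcnk2, Kcnk5 and Kcnk13 with AA. With PGE2 they were at Kcnj2, Kcnk2, Kcnk5, Kcnk10 and Kcnk13. Kcne2 rose most with AA (1.45, SE 0.11, adjusted p = 2.71e-08) and Kcnk6 most with PGE2 (1.20, SE 0.16, adjusted p = 1.01e-05). Of the AA calls, 10 (4 higher, 6 lower) passed in every fit without 1 library, and of the PGE2 calls 7 (2 higher, 5 lower). The AA counts were 6 higher and 10 lower without AA replicate 1, 6 and 9 without AA replicate 2, 5 and 9 without vehicle replicate 1, and 6 and 9 without vehicle replicate 2. The PGE2 counts were 4 and 8 without vehicle replicate 1 and 3 and 6 without vehicle replicate 2. DESeq2 called 4 and 5 with AA, and 2 and 5 with PGE2. Several single-peak changes that passed without any 1 library were not called by DESeq2: with AA those at Kcnab2, Kcnh8, Kcnk6, Kcnk7, the Kcnu1 gene end and the raised Kcnk5 peak, with PGE2 that at Kcnb2, and between AA and PGE2 that at Kcnv2.

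**Figure D4:**
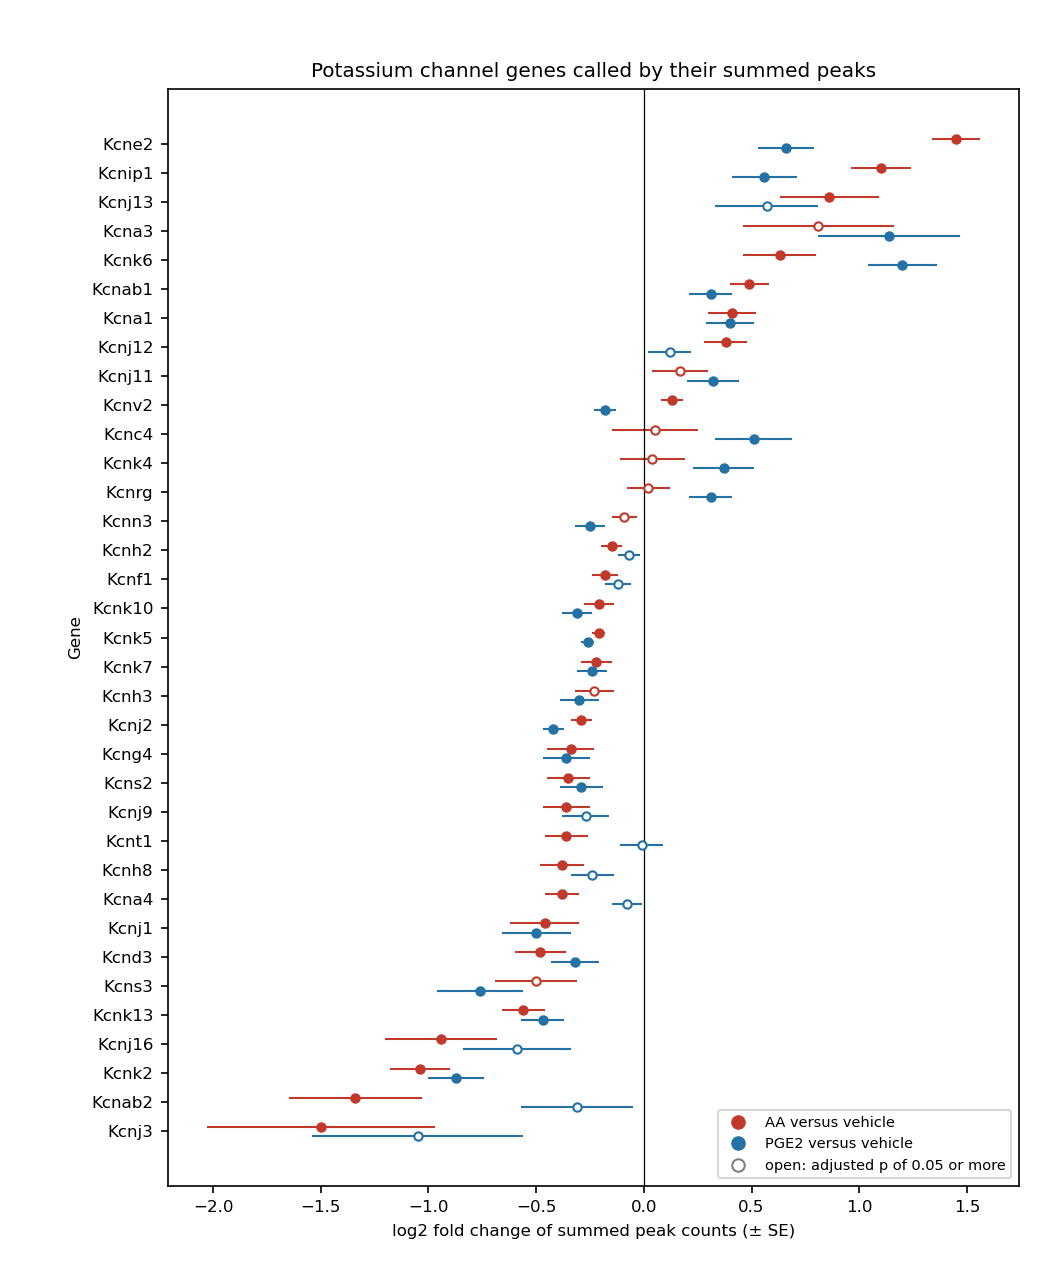
Log2 change from vehicle of summed peak counts (± SE) for 35 of the potassium channel genes called with AA or PGE2, AA (red) above PGE2 (blue); filled points passed an adjusted p of 0.05. Kcne2 and Kcnip1 lie farthest to the right with AA, at 1.45 and 1.10, and Kcnk2 lies at -1.04 with AA and -0.87 with PGE2.

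Between the treatments, 10 peaks were higher and 17 lower with AA than with PGE2, 9.22% of those tested, against 9.95% of all peaks (5.07% higher, 4.88% lower). At least 2-fold changes were called upward at 1 peak and downward at 5, against 0.374% and 0.34% of all peaks. Of the 27, 2 passed in every fit that left out 1 library, the larger Kcne2 peak and the Kcnv2 peak described above. DESeq2 called 1 higher and 0 lower, against 223 and 343 over all tested peaks. It gave no adjusted p for several of the 27, such as those at Kcnb2, Kcnj8 and Kcnk13, and these count as not called. With edgeR 52 peaks had an unadjusted p under 0.05, and the share over all peaks was not counted. The counts were 4 and 4 without AA replicate 1, 3 and 6 without AA replicate 2, 5 and 18 without PGE2 replicate 1, and 5 and 3 without PGE2 replicate 2. By summed peaks 3 genes were higher (Kcne2, Kcnip1 and Kcnv2) and 8 lower, 14.9% of 74, against 18.2% of all genes (9.22% higher, 8.97% lower). The lower ones included Kcna4, Kcnab2, Kcnb2, Kcnk6, Kcnk12, Kcnrg and Kcnt1. The gene counts were 2 and 1 without AA replicate 1, 3 and 1 without AA replicate 2, 6 and 10 without PGE2 replicate 1, 3 and 3 without PGE2 replicate 2, and 3 and 4 without either vehicle library. Kcne2 exceeded PGE2 by 0.79 (SE 0.10, adjusted p = 8.3e-05) and Kcnv2 by 0.32 (SE 0.05, adjusted p = 0.000258), and both passed without any 1 library. The Kcnip1 difference of 0.55 (adjusted p = 0.00664) was lost without AA replicate 1 (0.40).

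Peaks at gene ends were also counted apart. Among 57 tested, 2 were higher and 9 lower with AA, against 14.6% and 8.11% of the gene-end peaks of all genes. With PGE2, 12 were higher and 4 lower, against 31% and 5.59%. Between AA and PGE2, 0 were higher and 8 lower, against 1.78% and 16.3%. At an unadjusted p under 0.05 these were 1 and 17 with edgeR, and DESeq2 gave 0 and 0 (0 and 8 unadjusted). For some of these peaks, such as those at Kcnb2 and Kcnk15, DESeq2 gave no adjusted p, and they count as not called. Scaling by library totals also gave 12 and 4 with PGE2, with 1 and 9 for AA and 0 and 10 between AA and PGE2. Separate scaling of gene-end and other peaks was chosen after the data were seen. It gave 6 higher and 11 lower with PGE2 (median log2 change -0.01), 1 and 10 with AA, and 2 and 5 between AA and PGE2. Such scaling sets the typical change of gene-end peaks near 0, so it cannot show a shift of gene-end peaks as a whole. The shares among gene-end peaks of all genes were not counted under these 2 scalings, at the unadjusted p or with DESeq2. The other 236 tested peaks gave 32 higher and 36 lower with AA (17.1% and 15.1% of the other peaks of all genes), 25 and 21 with PGE2 (10.7% and 11.7%), and 10 and 9 between AA and PGE2 (5.79% and 2.38%).

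**Figure D5:**
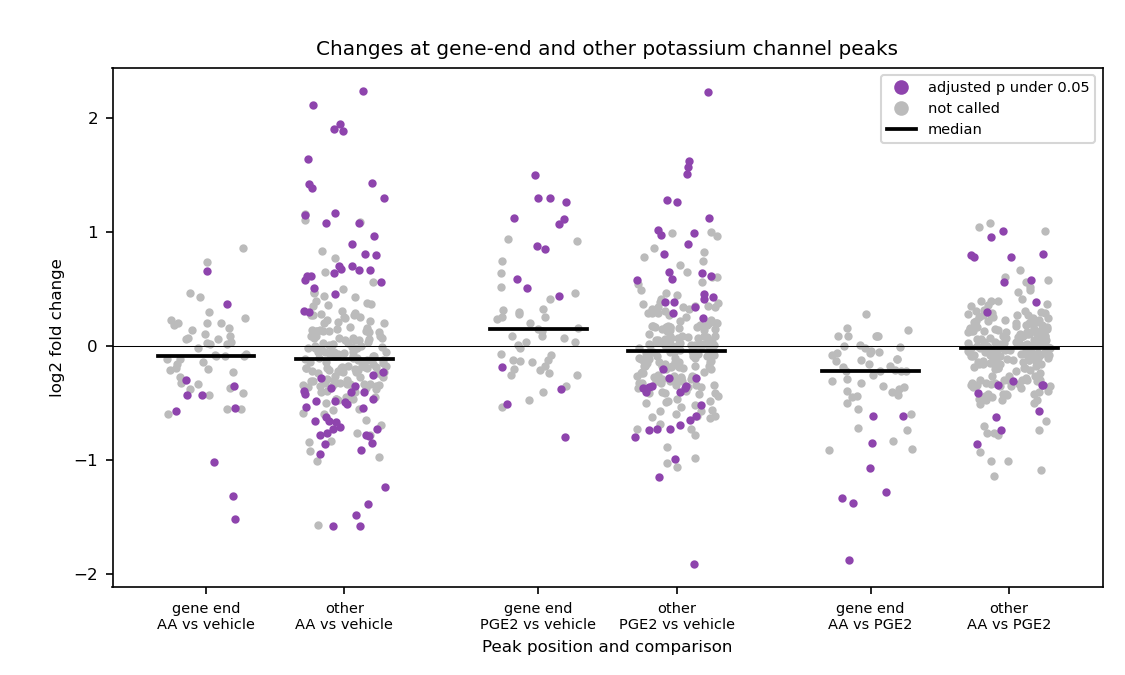
Log2 change of each tested potassium channel peak in the 3 comparisons, gene-end peaks left of the other peaks; purple points passed an adjusted p of 0.05 and black lines are medians. Gene-end peaks have a median of -0.09 with AA, 0.15 with PGE2 and -0.22 between AA and PGE2.

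The gene-end peaks higher with PGE2 included small ones at voltage-gated genes. Kcna3, which encodes the lymphocyte channel Kv1.3, had 1.69 and 1.96 CPM with AA and 1.68 and 3.24 with PGE2, against 1.15 and 0.839 with vehicle. Its PGE2 change of 1.30 (adjusted p = 0.00439) was lost without PGE2 replicate 2 (0.75) or vehicle replicate 2 (1.09). The peak rests on few counts, and 1 PGE2 library stood above the other.

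Genes that work with potassium channels were counted from 4 further lists, beside which 16.7% of all peaks were higher and 13.8% lower with AA, and 14.3% and 10.6% with PGE2. The left-out channel genes of gut epithelium, Kcnq1, Kcne3, Kcnn4 and Kcnma1, had 43 tested peaks, with 3 higher and 6 lower with AA, and 4 and 3 with PGE2. Accessory subunits without a Kcn symbol gave 8 higher and 2 lower with AA and 4 and 1 with PGE2 among 23. There Abcc8, which encodes the sulfonylurea receptor of ATP-sensitive channels, was higher over its 9 peaks by 0.36 (SE 0.06, adjusted p = 9.77e-05) with AA and 0.31 (SE 0.06, adjusted p = 0.000492) with PGE2. Abcc8 also stands among the enteroendocrine markers, whose 26 peaks held 97.3 and 101 CPM with AA and 102 CPM in both PGE2 libraries, against 87.5 and 91.5 with vehicle. Abcc8 itself held 62.3 and 63.9 of these with AA and 59.8 and 61.4 with PGE2, against 48.2 and 49.8 with vehicle. The median change over the list's peaks was -0.26 with AA and 0.08 with PGE2, and Cck was lower with AA by -0.60 (adjusted p = 0.0162). Cyclic nucleotide-gated and pacemaker channels gave 6 and 6 with AA and 4 and 5 with PGE2 among 43, and pumps and cotransporters 16 and 7 with AA and 13 and 5 with PGE2 among 120. In the last list the sodium pump subunit gene Atp1b3 was higher by 0.45 (SE 0.10, adjusted p = 0.00316) with AA and 0.69 (SE 0.10, adjusted p = 0.000106) with PGE2.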

How the data were processed

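The authors deposited whole-number counts for 90823 consensus peaks in all 6 libraries, unnormalised. The header line records featureCounts 1.6.3, run on paired reads without strand, with each read cut down to its 5′ end and allowed to count in every peak it met. Per the submitters' processing notes, Trim Galore, BWA, Picard, SAMtools, MACS2 and build mm10 were used. Their settings, and any shift of reads for the transposase, were not stated in what was at hand. A single shared peak set leaves regions outside it unmeasured.

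Each peak was given to the coding gene of GRCm38.p6, the assembly of mm10, whose start or end was closest to its centre, up to 50 kb away, which does not show that the peak acts on that gene. The test was edgeR 4.0.16 (quasi-likelihood F-test, robust, TMM factors 0.969 to 1.02) on all 6 libraries with group as the term, after filterByExpr removed 1476 peaks and left 89347. P-values were adjusted by Benjamini-Hochberg over all peaks, or over 16791 genes when a gene's peaks were summed, with a threshold of 0.05. The test draws each peak's spread toward a trend over all peaks, with 42.2 prior degrees of freedom (median) against 3 residual ones. CPM used TMM-scaled totals, and an SE is the one the F statistic implies. The procedure was tested on simulated data. Replicates within a group differed by more than Poisson noise, with a chi-square per degree of freedom of 1.12 (AA), 1.55 (PGE2) and 1.1 (vehicle). Alternatives were RLE and library-total scaling, no filter, a replicate block, leaving out each library, fitting only the libraries compared, DESeq2 1.42.0 (R 4.3.3), separate scaling of gene-end peaks and other rules of assignment.

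The genes, lists and naming rule were chosen with earlier results of these data known. The rule took, per comparison, the 8 largest called changes each way (1 per gene) among non-overlapping peaks with average log2 CPM of at least 1, the 4 gene-end peaks and 5 summed genes with the smallest p each way, and genes with at least 4 tested peaks of which called 1 way at least as many as not. In any case it took Kcnk2, Kcnk4, Kcnk10, Kcnk5, Kcnk1, Kcnj13, Kcnj15, Kcnj16, Kcnh1 and each family's most open gene. Other peaks and genes in the text, Abcc8 and Atp1b3 among them, were named after their values were seen. Some genes are not reported here.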

Additional observations from a re-analysis of the deposited data

How the results depend on the processing

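Counts are given as higher and lower. Shares over all genes were not counted for peaks within 10 kb of a gene end, or inside a gene or within 10 kb. Gene-end peaks of all genes were called at 14.6% and 8.11% with AA and 31% and 5.59% with PGE2. Between AA and PGE2 these shares were 1.78% and 16.3%. Over all 89347 tested peaks DESeq2 called 6075 and 3012 with AA, 5288 and 2079 with PGE2, and 223 and 343 between AA and PGE2. None of the 231 called peak and gene values changed sign, and 56 of them kept their call under every alternative that gave them an adjusted p. DESeq2 gave one for 201 of the 231, and a value without one counts as not called in the DESeq2 counts. Separate scaling of gene-end peaks covered 168, since it was run on peaks alone. With AA, 34 and 45 peaks became 15 and 5 with DESeq2, 12 and 21 within 10 kb of a gene end and 2 and 9 at gene ends alone; leaving out 1 library gave 20 to 38 higher and 18 to 48 lower, and higher calls outnumbered lower ones with DESeq2 and without either AA library or vehicle replicate 2. With PGE2, 37 and 25 peaks became 10 and 6 with DESeq2, 22 and 9 within 10 kb of a gene end and 12 and 4 at gene ends alone; leaving out 1 library gave 18 to 38 higher and 13 to 24 lower. Between AA and PGE2, 10 and 17 peaks became 1 and 0 with DESeq2, 2 and 15 within 10 kb of a gene end and 0 and 8 at gene ends alone, and 6 and 18 for peaks inside a gene or within 10 kb; leaving out 1 library gave 3 to 10 higher and 3 to 18 lower. With AA, summed genes numbered 9 and 19, 4 and 5 with DESeq2, and 5 to 11 higher and 9 to 22 lower without 1 library. With PGE2, summed genes numbered 10 and 14, 2 and 5 with DESeq2, and 3 to 10 higher and 6 to 16 lower without 1 library. Between AA and PGE2, summed genes numbered 3 and 8, 2 and 0 with DESeq2, and 2 to 6 higher and 1 to 10 lower without 1 library, and 3 and 4 when only those libraries were fitted. Labels share replicate numbers 1 and 2, but deviations of same-numbered libraries correlated at 0.036 (AA and PGE2), 0.005 (AA and vehicle) and -0.02 (PGE2 and vehicle), so the numbers were not taken to pair them. With the replicate block, calls were 34 and 45 with AA, 37 and 24 with PGE2 and 10 and 17 between them, and for summed genes 10 and 19, 11 and 14 and 3 and 7. Scaling by library totals gave 30 and 50, 36 and 33 and 10 and 20 peaks. Over all tested peaks the replicate block gave 15197 and 12429, 13160 and 9500 and 4605 and 4801. Library totals gave 13732 and 14316, 11530 and 12121 and 5292 and 4677 over all tested peaks. At peaks near 1 CPM the SEs were widest, and small changes were not detectable at this depth. The causes of these shifts were not tested.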
